A study of Homo sapiens with 4 samples.

Results

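The miR-548 family was described in HCT116 cells, a line from a human colorectal carcinoma, before and after induction of a short hairpin RNA (shRNA) against SAE2, the catalytic subunit of the enzyme that activates the protein modifier SUMO. Its members were chosen by name, and those tested were selected on their mean normalised count: 56 of the 1345 mature miRNA names in the small-RNA sequencing table begin with miR-548, on either strand. Of these, 42 had a mean of at least 10 normalised read counts over the 4 libraries and were tested, among 709 such names in the table. Names with the same value in all 4 libraries cannot be told apart, and with these counted once the family had 50 signals, 36 of them tested.

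The control group, called minus in the labels, held 1 library of the sh1 line and 1 of the sh2 line. The induced group, called plus, held 1 library labelled sh2 and 1 whose label gives no shRNA number, read as the sh1 line by elimination. All groups share the HCT116 background and an inducible SAE2 shRNA. The protocol of 3 days of doxycycline is written for every library, so that minus was read as without doxycycline from that word alone. No library with doxycycline but without an SAE2 shRNA was analysed here. The libraries of a group are separate lines with 1 library each per condition. The p-values rest mostly on a spread pooled over the names tested, with 2 residual and 43.0 prior degrees of freedom. They say little about how far the lines differ for a single name. Normalised counts summed to between 9700472 and 10519207 per library. The epithelial markers miR-200a-3p, miR-200b-3p, miR-200c-3p, miR-141-3p and miR-429 together stood at 272819 and 262885 normalised counts in the minus and at 307103 and 307233 in the plus libraries, where miR-200a-3p and miR-200b-3p rose. The 5 blood markers stood at 989 to 1207 over the 4 libraries. The 4 muscle, liver and neuron markers stood at 68.6 and 69.8 in the minus and at 88.3 and 95.9 in the plus libraries, with miR-133a at 0.00 in both minus libraries. The 3 stromal and endothelial markers stood at 15917 and 15973 in the minus and at 13428 and 16164 in the plus libraries. Among them miR-145-5p fell and miR-143-3p rose, the latter at 2892 and 2724 in the minus and 2857 and 4143 in the plus libraries. The 3 colon epithelial markers stood at 6725 and 6019 in the minus and at 10796 and 10557 in the plus libraries, and all 3 rose. Their part in the results was not tested.

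A miRNA is a short RNA cut from a hairpin precursor, and bases 2 to 8 of the mature strand, the seed, do most of the pairing with target messages. The miR-548 family is specific to primates and is derived from Made1, a short palindromic DNA transposon whose copies fold into hairpins when transcribed. The copies lie scattered over the genome, many inside introns of unrelated genes, and their mature strands differ by few bases, so that a short read can match several of them.

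RefSeq's table of mature sequences (GRCh38.p14) matched 36 of the 56 names, and 25 of the 42 tested. The matched strands were 18 to 23 bases long, with a median GC content of 35.7%, against 52.2% over 2370 mature names in that table. The sequences below come from the 5′ arm of the hairpin and are shown because all of them fell and they show how alike the members are. Capitals mark the seed.
miR-548g-5p, miR-548x-5p and miR-548aj-5p: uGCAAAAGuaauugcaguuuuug
miR-548ar-5p: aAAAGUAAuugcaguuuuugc
miR-548ab: aAAAGUAAuuguggauuuugcu
miR-548n: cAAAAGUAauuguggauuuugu
miR-548b-5p: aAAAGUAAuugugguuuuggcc
miR-548k: aAAAGUACuugcggauuuugcu
miR-548av-5p: aAAAGUACuugcggauuu
miR-548l: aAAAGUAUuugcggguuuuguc

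miR-548ar-5p shares a run of 20 bases with miR-548g-5p, but starts further into it and so has another seed. miR-548n and miR-548ab also share 20 bases with their starts offset. miR-548av-5p, of 18 bases, is contained whole in miR-548k. The next strands come from the 3′ arm and are shown because they include the fallers with a matched sequence and, last, a member whose mean was higher in the plus libraries.
miR-548b-3p: cAAGAACCucaguugcuuuugu
miR-548ah-3p: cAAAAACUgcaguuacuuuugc
miR-548u: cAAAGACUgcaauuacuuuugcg
miR-548av-3p: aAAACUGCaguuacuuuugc
miR-548o-3p: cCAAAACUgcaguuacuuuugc
miR-548ac: cAAAAACCggcaauuacuuuug

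The 20 bases of miR-548av-3p lie whole within both miR-548o-3p and miR-548ah-3p.

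The loci of the matched names show the scatter of the family: 31 hairpins on 19 chromosomes, 6 of them with both strands listed. Of these hairpins 23 have their mature strands in an intron of a GENCODE v29 gene on the same strand, 4 only in an intron on the opposite strand, and 4 in no other gene. None touches an exon of another gene. In the fallers shown above, miR-548ar-5p (chr13:114244505-114244525, + strand) lies in an intron of CDC16, which encodes a subunit of the anaphase-promoting complex. miR-548l (chr11:94466545-94466566, − strand) lies in an intron of MRE11, a DNA break repair gene, and miR-548u (chr6:57390180-57390202, + strand) in an intron of PRIM2, a primase subunit. miR-548n (chr7:34940804-34940825, − strand) lies in an intron of DPY19L1 and miR-548ah-3p (chr4:76575597-76575618, + strand) in one of SHROOM3, a regulator of cell shape. miR-548b-3p (chr6:119069062-119069083) and miR-548b-5p (chr6:119069098-119069119), both on the − strand, lie in an intron of FAM184A. miR-548k (chr11:70283986-70284007, + strand) lies in an intron of PPFIA1, and miR-548av-5p (chr18:72853365-72853382) and miR-548av-3p (chr18:72853321-72853340), on the − strand, in one of NETO1. miR-548ab (chr3:103524085-103524106, − strand) and miR-548g-5p (chr4:147344681-147344703, − strand) lie in no other annotated gene. miR-548x-5p (chr21:18686135-18686157, − strand) lies in an intron of its long non-coding host gene, and the listed copy of miR-548aj-5p (chrX:38023949-38023971, − strand) in an intron of SYTL5 on the opposite strand. miR-548o-3p is listed at 2 loci, in an intron of RALGAPB (chr20:38516607-38516628, + strand) and opposite to an intron of PRKRIP1 (chr7:102405748-102405769, − strand), and miR-548ac (chr1:116560038-116560059, − strand) in an intron of CD58, a cell adhesion gene. Messenger RNA of these genes is not measured in miRNA libraries.

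As a whole the family was a small part of the miRNA pool. The sum over its 56 names was 10754.5 in minus replicate 1, 9671.1 in minus replicate 2, 7069 in plus replicate 1 and 7155 in plus replicate 2. These sums were 0.109% and 0.0997% of the library totals in the minus libraries and 0.0719% and 0.0680% in the plus libraries, so that both plus libraries were below both minus libraries. With identical values counted once the shares were 0.0842% and 0.0779% in the minus and 0.0569% and 0.0539% in the plus libraries. No p is given for the sum, because with 2 libraries a group no exact permutation test can reach a p of 0.05. In these bulk libraries, fewer cells of a kind and less RNA per cell cannot be told apart. The 5 highest signals made up 53.0% to 55.6% of the family's sum, identical values counted once, in each library.

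Over the tested members, 24 of 42 names fell with induction, none rose and 18 did not pass (limma on log2 of the normalised count plus 1, Benjamini-Hochberg adjusted p under 0.05 over all 709 names). Over all 709 names 28.5% passed, 15.1% as falls and 13.4% as rises, so the family held 57.1% fallers beside that background, and its 24 names were 22.4% of the 107 falls in the table. At an unadjusted limma p under 0.05 the family had 26 falls and 0 rises, beside 145 falls and 124 rises over all 709 names. The median log2 change of the 42 names was −0.52, beside −0.03 over all names tested, and 40 of the 42 changes lay below 0. With identical values counted once, 20 of 36 signals fell and 0 rose, beside 14.7% fallers over the 701 signals of the table. The family was proposed with several of these falls already known, so the counts are a description of it. Among the fallers, miR-548ar-5p, miR-548h-3p and miR-548z reached the minimum mean for testing only through the minus libraries, as did miR-548an, which did not pass. The level filter favours falls in such names, so they are no support for the direction in the family counts given here and below.

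**Figure D1:**
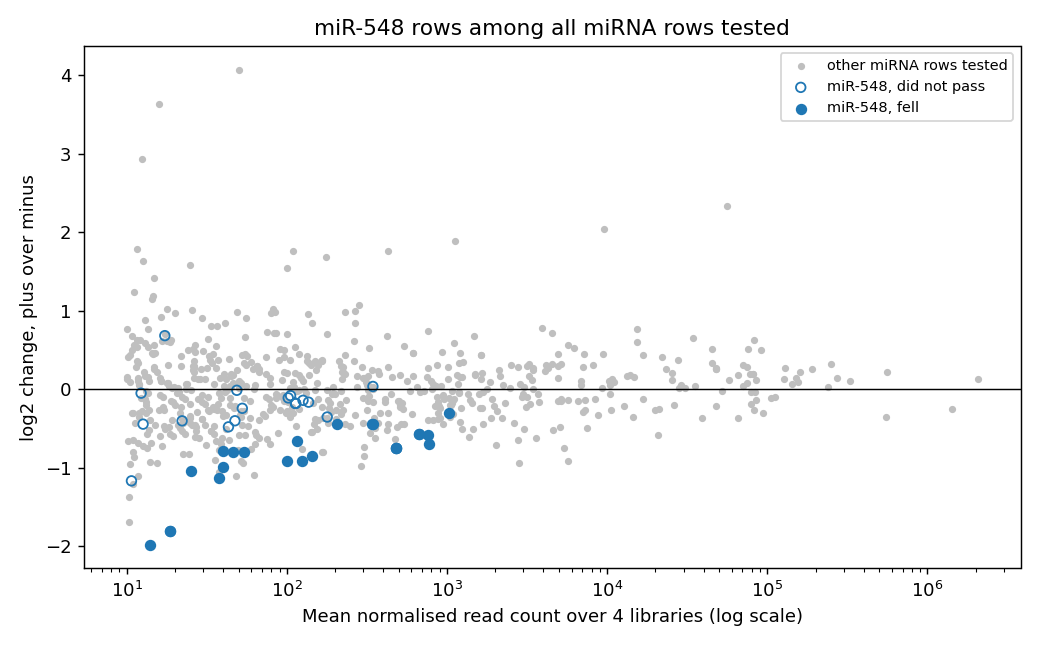
Log2 change of the normalised count plus 1, plus over minus, against the mean normalised count over the 4 libraries on a log axis, for the 709 names tested, with miR-548 names in blue (filled where the limma adjusted p was under 0.05) and other names in grey. Of the 42 miR-548 points 40 lie below 0, and the 24 filled ones all do.

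The falls were also counted by level. Of the 18 tested members with a mean under 100 normalised counts, 9 fell, where 8.05% of the table's names at that level fell. Of the 24 with a mean of 100 or more, 15 fell, beside 22.5% of the table's names in the same range of levels. These level classes were chosen after the values were seen. Names with identical values count separately here and in the later counts by separation, line and arm. Most falls were below 2-fold, ranging from 1.23-fold to 4.37-fold, and 6 of the 24 names were at least 2-fold lower, among 11 such falls in the whole table. miR-548ar-5p, miR-548h-3p and miR-548z, counted among those 6 and among the 9 under a mean of 100, reached the mean of 10 only through the minus libraries, so the level filter favours large falls there and these counts are no support for the direction.

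The calls depend on the level filter, on the fit of the variance and on which libraries enter the fit. With no level filter 0 family names passed, and likewise with no trend, where the variance does not follow the mean level. The whole table kept 5 calls in each of these settings, all of them rises. Every fall given below is thus lost in both, which is not repeated for each name. With any 1 library left out fewer miR-548 names fell, and without either plus library no family name passed. The whole table also kept far fewer calls without either plus library. Each such fit leaves 1 library in a group. The family median stayed between −0.59 and −0.47 in these 4 fits, beside −0.06 to −0.01 over all names tested.

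The most abundant members fell by less than 2-fold. miR-548e, the highest, stood at 1185.29 and 1091.18 normalised counts in the minus libraries, replicate 1 first, and at 892.42 and 959.24 in the plus libraries. Both plus libraries were below both minus libraries, with a log2 change of −0.30 (SE 0.11, limma adjusted p = 0.0435), a call lost under median-ratio scaling and quantile normalization and without any 1 library. miR-548d-5p stood at 992.76 and 913.67 in the minus and at 618.97 and 555.78 in the plus libraries. The groups were far apart for this strand, with a log2 change of −0.70 (SE 0.12, limma adjusted p = 1.31e-05). miR-548ap-3p stood at 946.40 and 873.02 in the minus and at 569.64 and 652.80 in the plus libraries, a log2 change of −0.58 (SE 0.12, limma adjusted p = 0.000281). miR-548aa and miR-548t-3p share all values, at 821.42 and 772.88 in the minus and 528.50 and 545.55 in the plus libraries, and fell as 1 signal under 2 names (log2 change −0.57, SE 0.12, limma adjusted p = 0.000372). In each of these 4 signals the gap between the conditions exceeded the gap between the libraries of a condition.

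The 3 names with the same printed sequence, miR-548g-5p, miR-548x-5p and miR-548aj-5p, also had the same values. They stood at 664.17 and 551.81 in the minus libraries and at 362.99 and 355.56 in the plus libraries. The plus libraries lay close together and well below both minus libraries, with a log2 change of −0.75 (SE 0.13, limma adjusted p = 2.27e-05). Because these copies come from different chromosomes and give the same mature strand, the table does not show which of them fell.

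Strands contained in one another were set side by side. miR-548k stood at 388.03 and 399.72 in the minus and 287.91 and 292.20 in the plus libraries, and the shorter miR-548av-5p at 388.03 and 402.56 in the minus and 288.94 and 293.22 in the plus libraries. Their values differed by at most 0.0102 on the log2 scale in any library, although the genes lie on chromosomes 11 and 18, so they are close to 1 signal. Both had a log2 change of −0.44 (SE 0.14, limma adjusted p = 0.0159), lost under quantile normalization and without any 1 library. miR-548av-3p stood at 227.78 and 244.80 in the minus and 168.66 and 179.82 in the plus libraries, and fell with a log2 change of −0.44 (SE 0.16, limma adjusted p = 0.0401), a call lost under median-ratio scaling, under quantile normalization and without any 1 library. miR-548o-3p, which holds the bases of miR-548av-3p within it, stood at 200.56 and 200.35 in the minus and 154.26 and 159.39 in the plus libraries. It had a log2 change of −0.35 (SE 0.17) and did not pass (limma adjusted p = 0.118), though both plus libraries were below both minus libraries. miR-548ah-3p also holds these bases and lay at a lower level, up to 3.55 log2 units from miR-548av-3p, and its log2 change of −1.04 is described with the low members below.

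**Figure D2:**
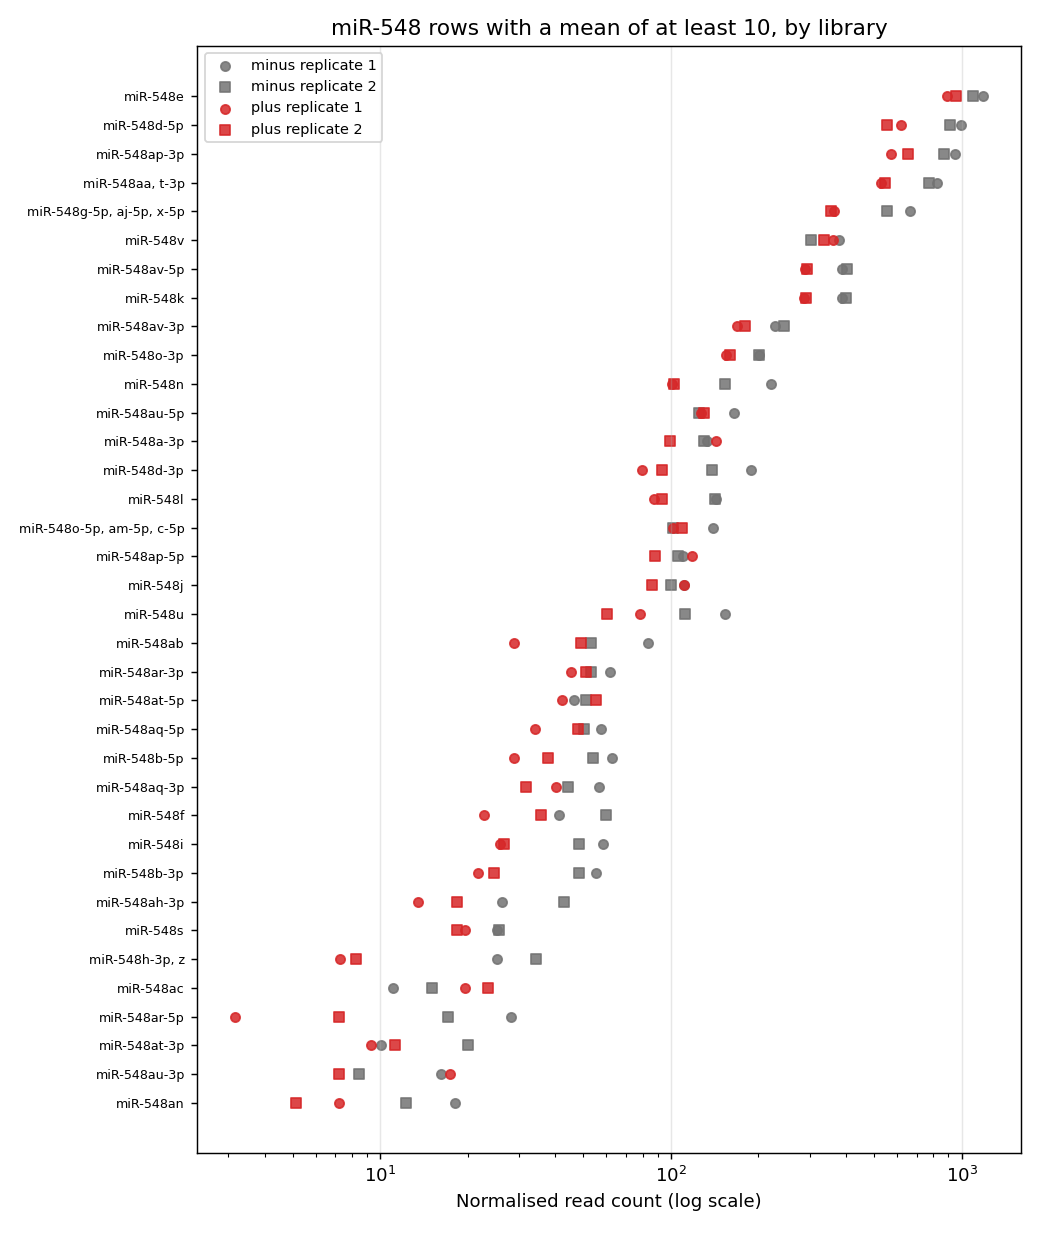
Normalised read count on a log axis of the 36 miR-548 signals with a mean of at least 10, in minus (grey) and plus (red) libraries, circles for replicate 1 and squares for replicate 2, ordered by mean, with names of identical values on 1 line. The plus libraries lie left of both minus libraries in most lines, as for miR-548d-5p, and right of them for miR-548ac alone.

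The largest falls were in members of low level. miR-548ar-5p stood at 28.18 and 17.06 normalised counts in the minus and at 3.16 and 7.19 in the plus libraries. Both plus libraries were far below both minus libraries, and plus replicate 1 was near the floor of 3 reads. Its log2 change was −1.98 (SE 0.50, limma adjusted p = 0.0020), the largest fall of all 709 names in this fit. The change came to −1.49 with plus replicate 1 left out and to −2.46 with plus replicate 2 left out, was called in 1 of the 4 fits with a library left out, and lost its call under quantile normalization. Counting about 46 minus and 10 plus reads gave a plus to minus ratio of 0.219 (95% counting interval 0.0987 to 0.441). miR-548h-3p and miR-548z, 1 signal under 2 names, stood at 25.18 and 34.27 in the minus and at 7.28 and 8.23 in the plus libraries. The log2 change was −1.80 (SE 0.42, limma adjusted p = 0.000835), and about 61 minus and 15 plus reads gave a plus to minus ratio of 0.248 (0.131 to 0.442). miR-548ar-5p, miR-548h-3p, miR-548z and miR-548an reached the mean of 10 only through the minus libraries.

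Further members of low level fell by about 1 log2 unit. miR-548b-3p stood at 55.41 and 48.30 in the minus and 21.67 and 24.57 in the plus libraries (log2 change −1.13, SE 0.30, limma adjusted p = 0.00334). miR-548ah-3p stood at 26.20 and 42.77 in the minus and 13.44 and 18.42 in the plus libraries (log2 change −1.04, SE 0.36, limma adjusted p = 0.0248, lost under quantile normalization). miR-548i stood at 58.43 and 48.27 in the minus and 25.77 and 26.61 in the plus libraries (log2 change −0.99, SE 0.29, limma adjusted p = 0.00813). In all 3 the conditions did not overlap. With minus replicate 1 left out the log2 change was −1.03 for miR-548b-3p and −0.86 for miR-548i. Both calls were lost there and without either plus library. The minus libraries of miR-548ah-3p differed more than its plus libraries did, and its log2 change was −0.70, not past the threshold, with minus replicate 2 left out and −1.39 with minus replicate 1 left out.

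Further falls near this size came from members at higher level. miR-548d-3p stood at 188.43 and 138.94 in the minus and 79.26 and 93.02 in the plus libraries (log2 change −0.91, SE 0.20, limma adjusted p = 0.000491). miR-548u stood at 153.16 and 111.53 in the minus and 78.20 and 60.35 in the plus libraries (log2 change −0.92, SE 0.22, limma adjusted p = 0.000952). miR-548n stood at 220.68 and 154.02 in the minus and 100.84 and 102.22 in the plus libraries (log2 change −0.85, SE 0.19, limma adjusted p = 0.000605). In each of them minus replicate 1 was the highest library, and the groups did not overlap. With minus replicate 1 left out the log2 changes were −0.69, −0.69 and −0.60 in this order. The calls were lost there and without either plus library. miR-548l stood at 143.10 and 141.83 in the minus and 87.46 and 93.00 in the plus libraries, a fall with close replicates (log2 change −0.65, SE 0.19, limma adjusted p = 0.00926), though the call was lost without any 1 library.

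The last 3 fallers were miR-548ab, miR-548b-5p and miR-548f. miR-548ab stood at 83.62 and 52.89 in the minus and 28.89 and 49.05 in the plus libraries (log2 change −0.80, SE 0.28, limma adjusted p = 0.0250). Minus replicate 2 and plus replicate 2 were close for it, so that its log2 change was −1.50 in line 1 and −0.11 in line 2. Its call was lost under quantile normalization, at a minimum mean of 50 and without minus replicate 1 or either plus library. Without plus replicate 1 the log2 change was −0.43. miR-548b-5p stood at 62.47 and 53.93 in the minus and 28.87 and 37.83 in the plus libraries (log2 change −0.79, SE 0.28, limma adjusted p = 0.0252, lost under quantile normalization and without any 1 library). miR-548f stood at 41.32 and 59.74 in the minus and 22.70 and 35.77 in the plus libraries (log2 change −0.78, SE 0.30, limma adjusted p = 0.0451), a call that 3 of the 4 other scalings and each omission of a library ended. Its log2 change ran from −1.10 without plus replicate 2 to −0.46 without plus replicate 1.

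**Figure D3:**
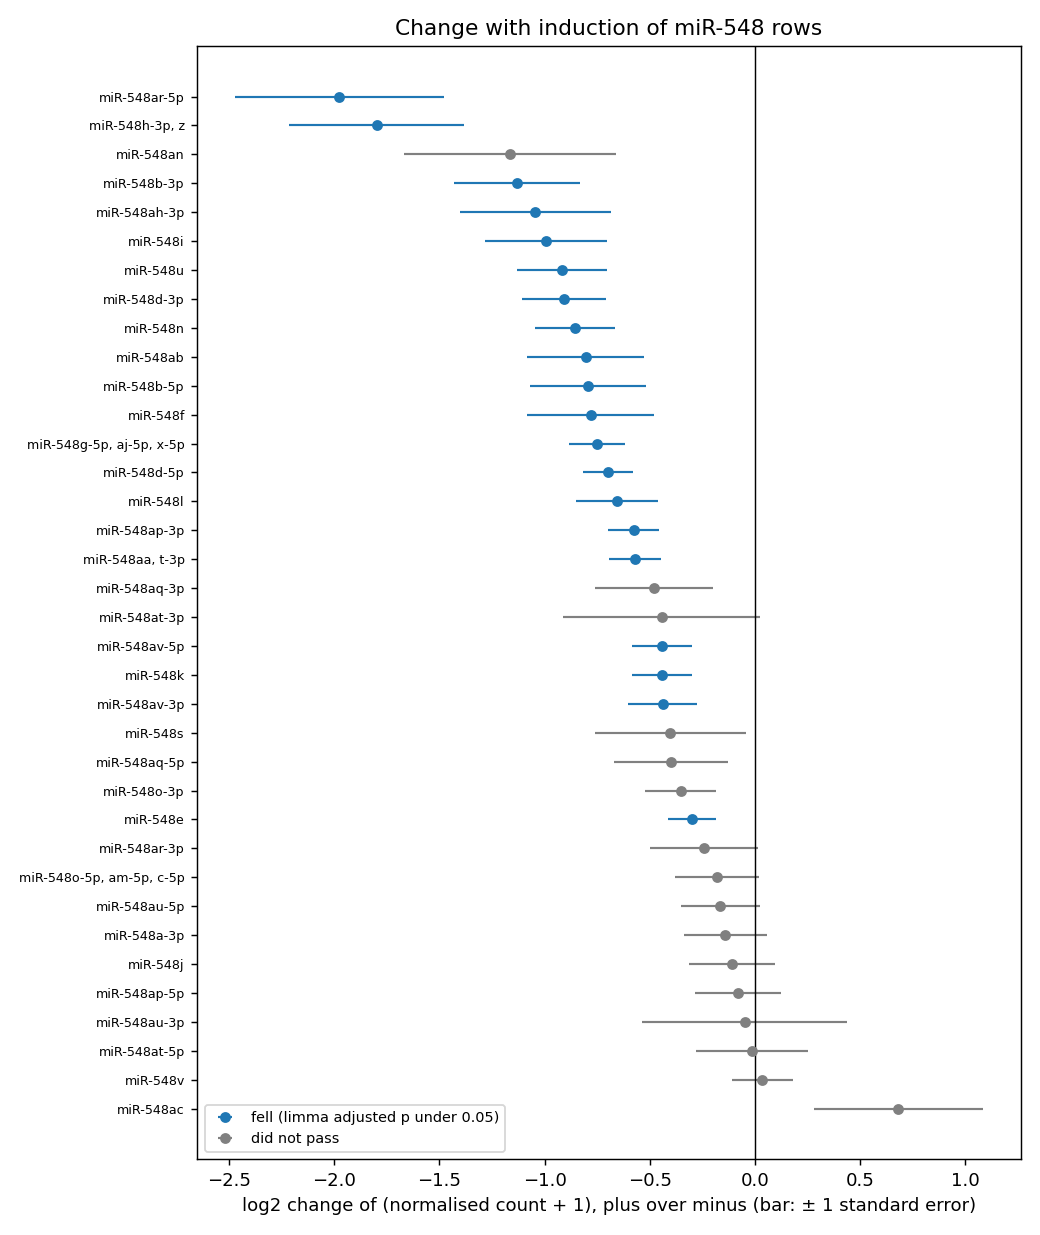
Log2 change of the normalised count plus 1, plus over minus, with ± 1 standard error, of the 36 tested miR-548 signals, in blue where the limma adjusted p was under 0.05 and in grey otherwise. The change runs from −1.98 for miR-548ar-5p to 0.68 for miR-548ac, with 20 signals in blue, all left of 0.

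The 18 tested names that did not pass included 16 with a log2 change below 0. For 6 of them, both plus libraries were below both minus libraries: miR-548an, miR-548aq-3p, miR-548aq-5p, miR-548ar-3p, miR-548o-3p and miR-548s. miR-548an, just inside the mean of 10, stood at 18.12 and 12.31 in the minus and at 7.23 and 5.15 in the plus libraries, with a log2 change of −1.16 (SE 0.50, limma adjusted p = 0.0795). The 2 names above 0 were miR-548v, at 378.96 and 303.17 in the minus and 360.84 and 335.07 in the plus libraries (log2 change 0.04, limma adjusted p = 0.876), and miR-548ac. miR-548ac stood at 11.10 and 15.08 in the minus and at 19.52 and 23.46 in the plus libraries. It was the only tested member with both plus libraries above both minus libraries, with a log2 change of 0.68 (SE 0.40) that did not pass (limma adjusted p = 0.217). miR-548au-3p, the other member just inside the mean of 10, stood at 16.12 and 8.43 in the minus and 17.43 and 7.19 in the plus libraries. Replicate 1 was the higher library in both conditions. These values rest on about 7 to 17 reads per library, and a difference between the lines was not tested.

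Complete separation of the conditions was counted for all members. Both plus libraries were below both minus libraries for 30 of the 42 names, among 33.9% of all names tested, and above them for 1, among 29.1% of all. All 24 fallers were among the 30.

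Within each line, 1 library per condition allows no test. In line 1 the tested members had a median log2 change of −0.64, beside −0.06 over all names, and in line 2 of −0.46, beside −0.01. Both lines lay below 0 for 31 of the 42 names, beside 39.1% of all names, and 10 names had opposite signs in the lines, none of them a faller. The share of all names with opposite signs was not counted. The lines do not share a control library, and line 1 rests on the reading of the unnumbered plus library as sh1.

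**Figure D4:**
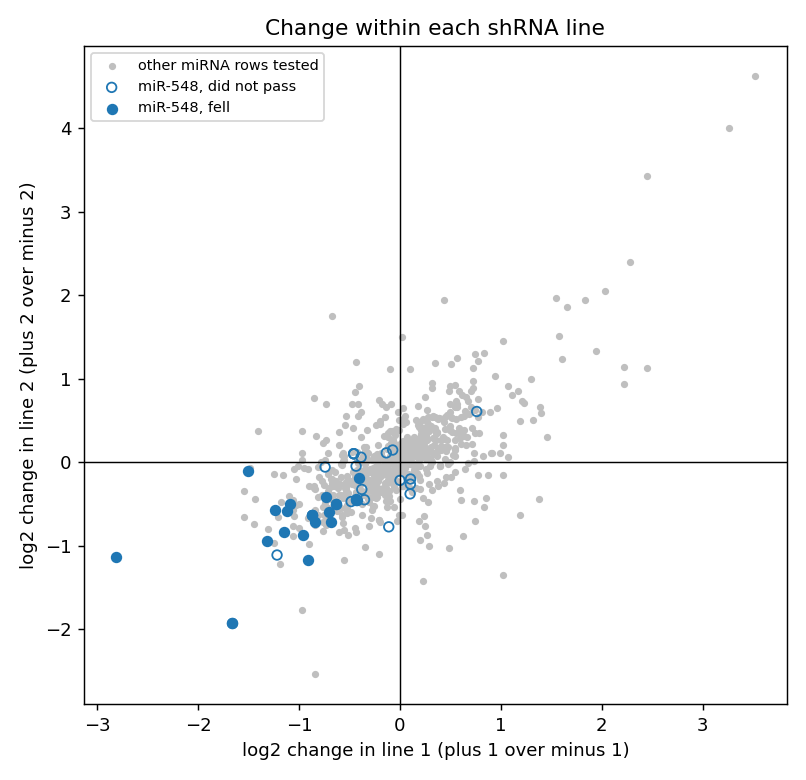
Log2 change in line 1 (plus replicate 1 over minus replicate 1) against that in line 2 (plus replicate 2 over minus replicate 2) for the 709 names tested, miR-548 names in blue and filled where they fell. The filled points all lie below 0 in both lines, and 31 of the 42 miR-548 points do.

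Both arms of the hairpin took part. Of 19 tested names on the 5′ arm, 11 fell, with a median log2 change of −0.65, and of 16 on the 3′ arm, 8 fell, with a median of −0.46. For 7 tested names the arm was not known, and 5 of these fell. Both arms were tested under 9 precursor names, where a strand can also come from further copies. Both strands fell for miR-548av, miR-548b and miR-548d. For miR-548ar the 5′ strand had a log2 change of −1.98 and the 3′ strand, at 61.47 and 52.90 in the minus and 45.27 and 51.08 in the plus libraries, of −0.24 (limma adjusted p = 0.507). For miR-548ap the 3′ strand fell, at −0.58, while the 5′ strand was at −0.08 (limma adjusted p = 0.814). Differences between arms were not tested.

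The seeds of the matched members were diverse, with 24 seeds among 36 names. The most frequent was AAAGUAA, held by 8 names, of which 5 were tested and 3 fell: miR-548ab, miR-548b-5p and miR-548ar-5p. The other 2 tested names with it were miR-548aq-5p, at a log2 change of −0.40 (limma adjusted p = 0.290), and miR-548ap-5p, at −0.08, so that members with 1 seed ranged from −1.98 to −0.08. The seeds AAAGUAC (miR-548k and miR-548av-5p) and GCAAAAG (miR-548g-5p and its identical copies) had 2 of 2 and 3 of 3 tested names fallen, each in effect 1 signal. miR-548at-5p, with the seed AAAGUUA, was at 46.37 and 51.03 in the minus and 42.18 and 55.14 in the plus libraries, with overlapping groups and a log2 change of −0.01.

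Relatives outside the name miR-548 were few. miR-570 and miR-603 also belong to Made1-derived hairpins, and 1 of their 3 names in the table was tested. miR-570-3p (chr3:195699460-195699481, + strand, in an intron of the non-coding MUC20-OT1) is shown to set it beside the 3′ strands above.
miR-570-3p: cGAAAACAgcaauuaccuuugc

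miR-570-3p stood at 248.91 and 179.53 in the minus and 131.66 and 112.44 in the plus libraries. Both plus libraries were below both minus libraries, and it fell with a log2 change of −0.79 (SE 0.18, limma adjusted p = 0.000811). miR-570-5p had the same values as miR-548ai, at 5.04 and 4.74 in the minus and 2.08 and 4.09 in the plus libraries, and miR-603 was at 0.96 in 1 library and 0.00 in the others. Of 4 names outside the family with a seed found in it, only miR-559 was tested, with a log2 change of −0.38 (limma adjusted p = 0.391). The primate-specific chromosome 19 cluster had 27 names in the table, and 0 reached the mean of 10, so it gives no comparison.

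The 14 members with a mean below 10 were not tested. Together they had 58.4 and 57.9 normalised counts in the minus and 38.1 and 23.6 in the plus libraries. This corresponds to about 119 against 60 reads, a plus to minus ratio of 0.509 (95% counting interval 0.367 to 0.70), and 9 of the 14 had a lower mean in the plus libraries. Just outside the mean of 10, miR-548p stood at 11.08 and 17.16 in the minus and 3.14 and 7.17 in the plus libraries, and miR-548a-5p at 6.05 and 6.58 in the minus and 14.32 and 5.13 in the plus libraries. For miR-548w about 20 minus and 2 plus reads came to a ratio of 0.101 (0.0114 to 0.415). For miR-548am-3p, which shares 21 bases with miR-548ah-3p, about 14 and 2 reads came to 0.144 (0.0159 to 0.628). These 2 were chosen after their values were seen. The other 10 had means of 0.253 to 3.99 and are not described singly.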

How the data were processed

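Small-RNA libraries of 4 HCT116 samples were compared, 2 minus and 2 plus. Each deposited value is a signal for 1 mature miRNA name: reads adjusted by library, as the worth of 1 read given below shows. The adjusted totals were not equal, at 9700472 in minus replicate 2 and 10519207 in plus replicate 2. Trimming with cutadapt is named in the labels' titles, and the submitters' processing notes list, with no step attached, the build hg19 (GRCh37) and the tools edgeR and TopHat2 2.0.8b. Not given in the sources used here were the counter, the miRNA annotation and the handling of reads with several matches. Columns written sh4 were matched to samples titled sh2 by library number and index. One read was worth 0.945 to 1.03 normalised counts, estimated from the low values, of which 88.4% to 100.0% per library lay within 0.1 normalised counts of a whole number of reads. Whole reads could not be recovered throughout, so count models were left out. The estimated depth was 9561385 to 10302847 reads, and the floor of 3 reads 2.83 to 3.09 normalised counts. Intervals use the Clopper-Pearson method on estimated reads rounded to whole numbers. They cover counting error only, and not the error of that estimate.

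Names were tested two-sided with limma 3.58.1 (R 4.3.3), which fitted log2(value + 1) and let the variance follow the mean level, over the 709 names with a mean of at least 10, with 2 residual and 43.0 prior degrees of freedom. This scale understates the change of low miRNAs. The fit was also run on simulated counts with the same dispersion for every name and no difference between lines. That setting is simpler than these libraries, so the run is no support for the calls. All members with an adjusted p under 0.05, the 5 with the highest means and the 2 on each side of the mean of 10 are named with their values, and others where stated. Members, lists and tests were chosen with earlier results of these data known. Alternatives covered scaling, pseudocount, level filter, trend, identical values, the line as a block and omission of each library. Same-numbered libraries share a line, by label for sh2 and by elimination for sh1, and their deviations correlated at 0.06 over the names tested. Sequences and loci come from RefSeq (GRCh38.p14) and surroundings from GENCODE v29. SAE2 itself is not measured in these libraries.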

Additional observations from a re-analysis of the deposited data

Results flagged for a closer look

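In 10 of the 42 tested names the log2 change had opposite signs in the 2 lines, although both carry an SAE2 shRNA. The share of all names tested with opposite signs was not counted, so these names are not set apart from the table. With 1 library per line and condition the difference was not tested, and none of these names fell in the comparison of the conditions. The log2 change in line 2 was higher than in line 1 by 0.56 for miR-548am-5p, miR-548c-5p and miR-548o-5p, which are 1 signal, by 0.44 for miR-548au-5p, by 0.24 for miR-548at-5p and by 0.21 for miR-548v. The log2 change in line 2 minus that in line 1 was −0.48 for miR-548a-3p, −0.37 for miR-548ap-5p, −0.31 for miR-548au-3p and −0.22 for miR-548j. For miR-548j the change in line 1 was only 0.0019.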

How the results depend on the processing

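The family median stayed below 0 in all 16 alternatives, from −0.59 to −0.44, and no alternative gave a rise at an adjusted p under 0.05 in the family. The count of 24 falls was 15 under quantile normalization and 15 at a minimum mean of 50 (of 26 names tested). It was 0 with no level filter and 0 with no trend, and lower with any 1 library left out. With no filter 27 miR-548 names fell at an unadjusted limma p under 0.05, beside 159 falls and 152 rises among 1345 names. With no trend 24 miR-548 names fell and 1 rose at that level, beside 124 falls and 95 rises among 709 names. Calls over the whole table went from 202 to 101, 5 and 5 under quantile normalization, no filter and no trend, and to 7 to 115 with 1 library left out. The split of the table's calls was 107 fell and 95 rose as reported, 83 and 121 under median-ratio scaling, and 107 and 68 with equal totals, while the family had 21 and 23 falls under these scalings. With the line as a replicate block 24 members fell, beside 113 falls in the whole table. The block changed no call among the 26 miR-548 names for which it was followed. miR-548au-3p changed sign to 0.00886 under median-ratio scaling, and ranged from −0.63 to 0.54 with 1 library left out. With identical values counted once, the family's share was 0.0842% and 0.0779% in the minus and 0.0569% and 0.0539% in the plus libraries. Names below a mean of 10 rest on few reads, and a fit with 1 library in an arm assumes that it varies like the others.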
